A study of Mus musculus with 16 samples.

Results

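The immediate early genes described here are 31 genes: the AP-1 genes Fos, Fosb, Fosl1, Fosl2, Jun, Junb, Jund and Maff, the zinc finger factor genes Egr1, Egr2, Egr3, Klf2, Klf4, Klf6 and Klf10, the nuclear receptor genes Nr4a1, Nr4a2 and Nr4a3, Myc, Srf, and the genes Ier2, Ier3, Ier5, Dusp1, Btg1, Btg2, Zfp36, Zfp36l1, Arc, Ccn1 (Cyr61) and Ccn2 (Ctgf). They were listed by name, and all 31 were found among the 19938 genes measured, each on 1 row of the array table. The cells were N25/2, an immortalized line from mouse embryonic hypothalamus that was grown in DMEM with fetal bovine serum. Control cells were kept in a medium with amino acids and deprived cells in a medium without them, for 1, 2, 3, 5 or 16 h. Each treatment had 4 arrays at 5 h and 1 array at each other time, 16 arrays in all, and whether the treatment media held serum is not stated in the sources used here. All results come from 1 cell line, and the labels do not say whether arrays of a group came from separate cultures, so the p-values rest on the variation among these arrays alone, and that variation may be technical.

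Immediate early genes are switched on within minutes of a growth factor, serum, stress or depolarization signal, without new protein synthesis, and their mRNAs are short-lived. The signal reaches them mainly through the kinases ERK, JNK and p38, which act on Srf with its ternary complex partners and on CREB, and many of the products are transcription factors that start the next wave of genes. In neurons of the hypothalamus, Fos and Egr1 are widely used as marks of recent activity.

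Of the marker lists for cell types, 2 of 7 neuronal genes (Map2 and Stmn2) and 2 of 8 measured hypothalamic genes (Sim1 and Otp) had a mean level above that of the median gene (7.47 on the log2 scale). The defining neuronal marker Rbfox3 and the peptide genes Pomc, Npy, Cartpt, Hcrt and Pmch did not. By the same measure 5 of 6 mesenchymal markers and 3 of 4 neural progenitor markers were above it, with Vim at 13.7 and Sox2 at 10.69. The highest neuronal and astrocyte markers, Stmn2 and Slc1a3, were at 12.25 and 11.74, above Sox2. The progenitor marker Nes, which codes for nestin, fell at 5 h, from 10.66 ± 0.22 in control to 9.96 ± 0.10 in deprived cells (SD, n = 4, difference -0.69, adjusted p = 0.00923 in limma). The mean level of the 4 progenitor markers lay between 8.86 and 8.95 on the control and between 8.67 and 8.73 on the deprived arrays of 5 h, and no other marker of the lists passed. The part of this in the results was not tested. None of the 4 measured oligodendrocyte and 4 endothelial markers was, and 1 of 5 for astrocytes (Slc1a3) and for microglia and blood cells (Cx3cr1) was. Both 5 h arrays numbered 4 stood apart: they correlated with the other arrays of their group at no more than 0.9871 (control) and 0.9875 (deprived), against at least 0.9955 and 0.9978 among the others. Array 4 lay outside the range of arrays 1 to 3 for 28 of the 31 immediate early genes in each group, against 80.7 and 84.7 percent of all genes. It was at least 0.5 away from their mean for 15 of the 31 in control and 13 in deprived cells, against 14.6 and 12.4 percent of all genes. Results at 5 h are therefore given with all arrays, with the arrays paired by number, and without both arrays numbered 4.

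Levels are log2 array signals, and a difference of 1 is 2-fold. A gene passed where its limma p-value, adjusted over all genes by the method of Benjamini and Hochberg, was under 0.05. The block is a term for the number that a control and a deprived array share. Correlations between the arrays set equal numbers apart only for those numbered 4. The sign of the 5 h difference also agreed in 4 of 4 same-numbered pairs for Junb, Btg1, Btg2 and Klf6, which passed in no 5 h setting. The share of all genes with such agreement was not counted. With amino acids present, the immediate early genes were mostly higher at 1 h than at 5 h. Without amino acids most were lower than in control cells at 1 h, and 10 were at least 2-fold higher than in control cells at 16 h. At 1 h, 25 of the 31 were lower in deprived than in control cells, against 47 percent of all genes, and the median difference (deprived minus control, log2) was -0.38, against 0.01 over all genes. At 16 h, 21 were higher in deprived cells, against 43.8 percent of all genes, with a median of 0.34 against -0.04. Between these times the medians were -0.13 at 2 h, -0.02 at 3 h and -0.01 at 5 h. For 18 genes the difference was below 0 at 1 h and above 0 at 16 h, which was so for 21.9 percent of all genes. There was 1 array per treatment at these times, so the differences carry no replicate check.

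**Figure D1:**
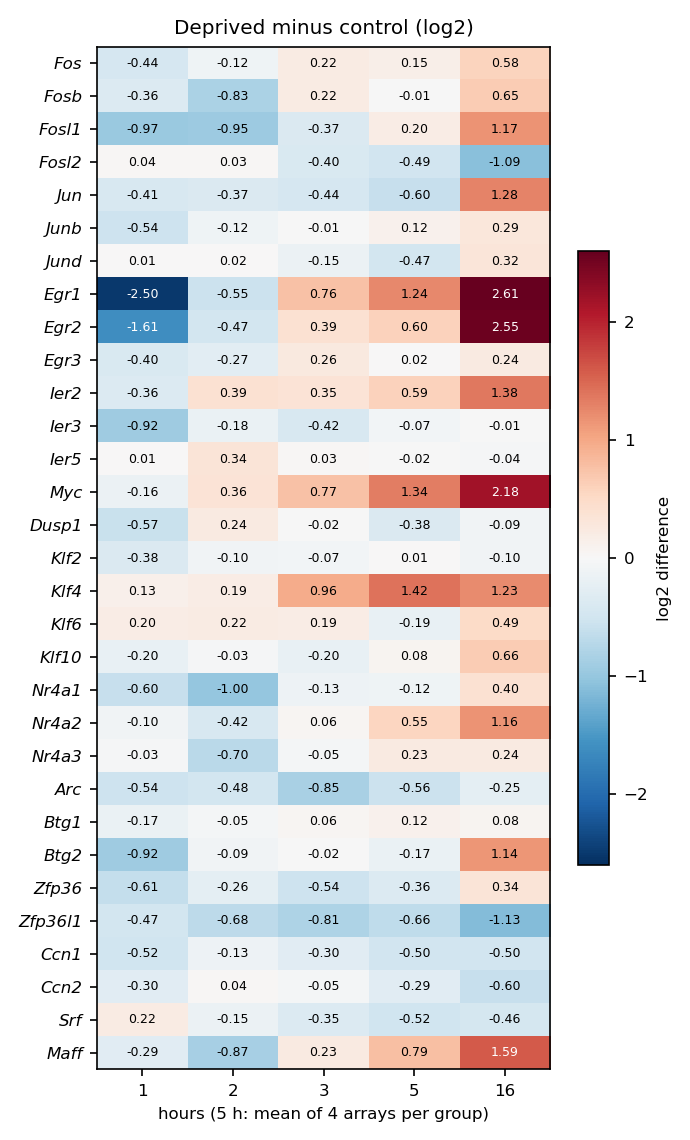
Deprived minus control on the log2 scale for each immediate early gene (rows) at each time in hours (columns), with red for higher and blue for lower in deprived cells; the 5 h column is a difference of means over 4 arrays per group and the others compare 1 array each. The 1 h column is mostly blue, down to -2.50 for Egr1, and the 16 h column is mostly red, up to 2.61 for the same gene.

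Egr1 and Egr2 had the widest swings of the list. Egr1, a zinc finger factor that ERK and Srf switch on, stood in control cells at 10.52, 8.86 and 7.39 at 1, 2 and 3 h. At 5 h the 4 control arrays were at 7.61, 7.70, 7.69 and 9.11, and at 16 h the level was 8.54. In deprived cells it was 8.02, 8.31 and 8.14 at 1, 2 and 3 h, then 9.04, 8.93, 8.82 and 10.29 on the 5 h arrays and 11.15 at 16 h. The control level thus went down to 3 h while the deprived level went up from 3 to 16 h, and they crossed between 2 and 3 h. Deprived cells were 5.65-fold lower at 1 h and 6.12-fold higher at 16 h. At 5 h the groups overlapped only because control array 4 was above deprived arrays 1 to 3; the difference was 1.24 (SE 0.40), higher in 4 of 4 same-numbered pairs (1.43, 1.23, 1.13 and 1.18). The limma adjusted p was 0.148 with all arrays, and the gene passed with the number as a block (adjusted p = 7.69e-07) and without both arrays numbered 4 (difference 1.27, adjusted p = 2.17e-06).

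Egr2, a related factor known for its part in Schwann cells and hindbrain, stood at 8.40, 7.33 and 6.46 in control cells at 1, 2 and 3 h, and at 6.78, 6.86 and 6.85 in deprived cells. At 5 h control arrays were at 6.47, 6.80, 6.98 and 7.66 and deprived arrays at 7.15, 7.11, 7.14 and 8.91, with array 4 highest in both groups. At 16 h the levels were 6.98 and 9.53, so deprived cells went from 3.06-fold lower at 1 h to 5.86-fold higher. Its difference at 5 h of 0.60 (SE 0.41) did not pass (adjusted p = 0.699 in limma), while it passed in the block fit (adjusted p = 0.011) and when both arrays numbered 4 were left out (difference 0.39, adjusted p = 0.041). Without deprived array 4 alone the difference of Egr2 was 0.16. For Egr3, of the same family, the differences were -0.40, -0.27, 0.26, 0.02 and 0.24 from 1 to 16 h, and the control level went from 8.30 at 1 h to between 7.74 and 7.90 on the 5 h arrays.

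Promoter windows, from 250 bases before to 50 after the annotated start, were held for 23 of the 31 genes (RefSeq, GRCm38.p6) and searched on both strands. Fosl1, Egr1, Egr3, Ier2, Myc, Klf10, Arc and Ccn2 had no window and were not searched, nor were bases outside the windows. A match is a description of letters and no measured site. The Srf site, the CArG box, was found in windows of 3 of the 23 (Egr2, Srf and Zfp36), against 1.63 percent of the 15563 measured genes with a window. The CREB site TGACGTCA was in 3 (Btg2, Dusp1 and Maff), against 2.72 percent, and its core TGACG, which lies within that site, in 15, against 28 percent. The Egr site, GCGGGGGCG or GCGTGGGCG, was in 8, against 5.75 percent. The TATA box, TATAAA, was in 7 (13.6 percent of genes), the AP-1 site TGANTCA in 1 (8.06 percent), and TTGCATCA, the core of the site bound by CHOP and ATF4, in 0 (0.822 percent). Egr2 has 5 annotated windows, and 4 of them hold a CArG box, though windows 3, 4 and 5 overlap and share the same one. Its 200 bases before the start of the third window (chr10:67537669-67537868, plus strand) are printed because the gene had the second largest swing of the list between 1 and 16 h, with the CArG box and the CREB cores that flank it in capitals.
Egr2: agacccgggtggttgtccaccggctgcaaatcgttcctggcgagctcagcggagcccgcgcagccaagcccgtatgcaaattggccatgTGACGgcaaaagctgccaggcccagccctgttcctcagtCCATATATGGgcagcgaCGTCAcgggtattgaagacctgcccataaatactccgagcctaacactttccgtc

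**Figure D2:**
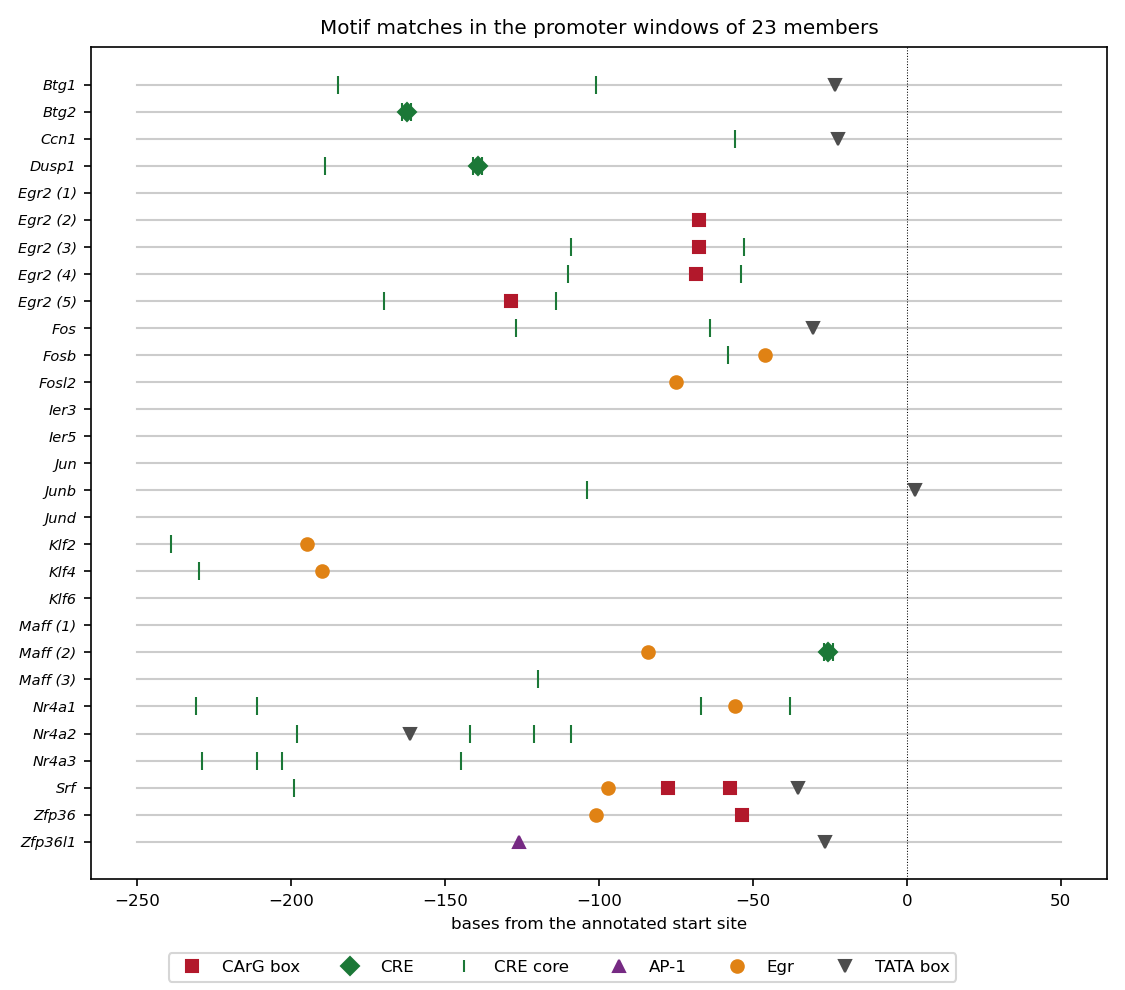
Motif matches (symbols) in the promoter windows of 23 immediate early genes, by distance in bases from the annotated start site; numbers in brackets tell apart the windows of a gene with several starts. CArG boxes appear in 4 windows of Egr2, as a pair in Srf and once in Zfp36. Windows 3, 4 and 5 of Egr2 overlap and show the same box.

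Among the Fos genes, whose products pair with Jun proteins to form AP-1, Fosl1 had the largest differences at 1 h and at 16 h. Fosl1 was at 11.07 and 11.27 in control cells at 1 and 2 h and at 10.09 and 10.32 in deprived cells, so the deprived level was 1.96-fold and 1.93-fold lower. At 3 h the levels were 10.14 and 9.77. On the 5 h arrays they were 10.09, 10.05, 9.89 and 9.12 in control cells and 10.21, 9.96, 10.13 and 9.63 in deprived cells, which overlap. At 16 h they were 9.76 and 10.93, a 2.26-fold higher level in deprived cells. The 5 h difference, 0.20 (SE 0.21), did not pass in limma in any of the settings run (adjusted p from 0.167 to 1.0).

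Fos, the founding AP-1 gene, had no difference past 2-fold. Its control levels were 6.93, 6.53 and 6.29 at 1, 2 and 3 h and its deprived levels 6.49, 6.41 and 6.52. On the 5 h arrays control cells were at 6.41, 6.45, 6.71 and 6.50 and deprived cells at 6.48, 6.69, 6.58 and 6.90, and at 16 h the levels were 6.74 and 7.32. Deprived array 4 was the highest at 5 h, and the groups overlapped. Fosb was lower in deprived cells by 0.36 at 1 h and 0.83 at 2 h and higher by 0.65 at 16 h, with a 5 h difference of -0.01 (SE 0.10).

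Fosl2 went the other way. It was close in both groups at 1 h (11.76 and 11.80) and at 2 h (11.32 and 11.35), then lower in deprived cells, at 11.50 and 11.10 at 3 h and at 11.32 and 10.23 at 16 h. Its 5 h arrays stood at 11.71, 11.64, 11.61 and 10.89 in control and 11.23, 11.06, 11.22 and 10.37 in deprived cells, with array 4 lowest in both. The 5 h difference of -0.49 (SE 0.23) did not pass (adjusted p = 0.397 in limma), and did in the block fit (adjusted p = 0.000271) and when both arrays numbered 4 were left out (adjusted p = 0.00123). Without deprived array 4 alone it was -0.29. The promoter of Fos before its start (chr12:85473690-85473889, plus strand) is printed as that of the founding gene of the list, with both CREB cores and the TATA box in capitals.
Fos: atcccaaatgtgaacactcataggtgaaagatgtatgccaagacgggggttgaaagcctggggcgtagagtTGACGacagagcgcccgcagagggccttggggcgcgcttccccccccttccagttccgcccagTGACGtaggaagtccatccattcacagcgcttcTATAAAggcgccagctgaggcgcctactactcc

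The Jun genes code for the partners of Fos. Jun, which also drives its own gene, was lower in deprived cells at 1, 2 and 3 h by 0.41, 0.37 and 0.44. At 5 h it measured 11.61, 11.51, 11.38 and 10.74 in control and 10.89, 10.86, 10.95 and 10.15 in deprived cells. All deprived arrays were below control arrays 1 to 3, and control array 4 lay among them. At 16 h the order had turned, 10.62 in control against 11.90 in deprived cells, 2.43-fold higher. Its difference at 5 h of -0.60 (SE 0.22) had an adjusted p = 0.233 in limma, 0.000115 in the block fit and 0.000368 without both arrays numbered 4. Jund, the partner present in resting cells, differed by 0.01 and 0.02 at 1 and 2 h and by -0.47 (SE 0.25) at 5 h (adjusted p = 0.497 in limma, 0.000417 in the block fit and 0.00901 without both arrays numbered 4), and was higher by 0.32 at 16 h. The 5 h value of Jund was -0.24 without deprived array 4 alone. Junb stood at 8.84 in control and 8.30 in deprived cells at 1 h and differed by 0.12 (SE 0.19) at 5 h, with array 4 highest in both groups at 5 h.

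Maff, a small Maf protein gene of the same leucine zipper class, followed Fosl1 early and late. It was at 8.36, 9.01 and 7.79 in control cells and 8.07, 8.14 and 8.02 in deprived cells at 1, 2 and 3 h. The 5 h arrays were at 7.64, 7.25, 7.35 and 6.62 in control and 8.13, 8.20, 8.16 and 7.53 in deprived cells, with array 4 lowest in both. The groups overlapped through deprived array 4 alone. At 16 h the levels were 7.15 and 8.74, 3.01-fold higher in deprived cells. The 5 h difference of 0.79 (SE 0.22) was higher in 4 of 4 pairs and missed the threshold (limma adjusted p = 0.0967), but passed in the block fit (adjusted p = 6.52e-05) and when both arrays numbered 4 were left out (adjusted p = 0.000416). Its second promoter window (chr15:79347320-79347519, plus strand) holds a full CREB site close to the start and an Egr site, both in capitals.
Maff: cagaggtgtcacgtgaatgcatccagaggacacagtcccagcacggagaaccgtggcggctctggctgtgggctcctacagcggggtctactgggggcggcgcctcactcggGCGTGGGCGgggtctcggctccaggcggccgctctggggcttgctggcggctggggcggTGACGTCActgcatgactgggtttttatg

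Myc and Klf4 were the 2 immediate early genes that rose at 5 h in limma with all arrays, and Zfp36l1 and Ccn1 the 2 that fell. Of all genes 4.11 percent were called, 2.41 percent higher and 1.7 percent lower, against 4 of the 31. With the block the counts were 8 higher and 10 lower, against 8.22 and 10 percent of all genes. Without both arrays numbered 4 they were again 8 and 10, the same 18 genes, against 6.34 and 7.17 percent. Leaving out single arrays also moved the calls: without control array 4 Egr1 passed as higher and Jun, Zfp36 and Srf as lower, and without deprived array 4 Ier2, Nr4a2 and Maff passed as higher and Zfp36 as lower. The groups did not overlap for 3 genes higher in deprived cells (Ier2, Myc and Klf4) and 5 lower (Arc, Btg2, Zfp36, Zfp36l1 and Ccn1), against 5.15 and 5.38 percent of all genes.

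**Figure D3:**
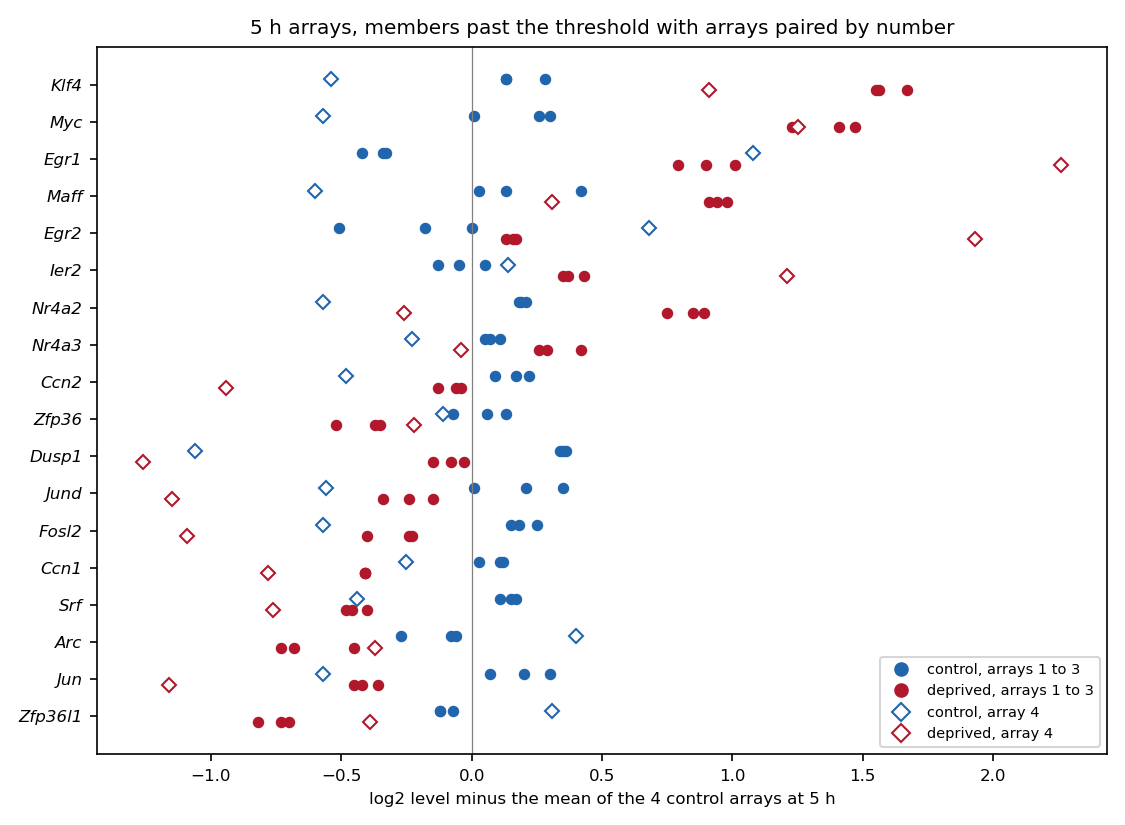
Level of each 5 h array minus the mean of the 4 control arrays (log2, x axis) for the 18 immediate early genes that passed with arrays paired by number, control in blue and deprived in red, and array 4 of each group as an open diamond. Arrays 1 to 3 of the groups are apart for most genes. Both diamonds are shifted the same way for most genes, as to the right for Egr1 and Egr2 and to the left for Dusp1 and Jund. For Zfp36 they are shifted in opposite directions, and for Myc the deprived diamond lies among the other deprived arrays.

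Myc codes for a factor that drives growth and ribosome production. Its control level went down from 11.77 at 1 h to 10.89, 10.85 and, on the 5 h arrays, 10.52, 10.48, 10.23 and 9.65, and was 9.93 at 16 h. Its deprived level stayed up, at 11.61, 11.26 and 11.62, then 11.69, 11.63, 11.45 and 11.47 on the 5 h arrays and 12.10 at 16 h. All deprived 5 h arrays were above all control arrays. Myc rose 2.53-fold at 5 h (log2 1.34, SE 0.18, adjusted p = 0.00268 in limma, 4 of 4 pairs), passed in all 16 settings (adjusted p up to 0.016), and was 4.52-fold higher in deprived cells at 16 h. With all arrays it was also the 1 gene of the list whose slope over time differed between treatments. In a straight line on log2 hours, Myc went by -0.48 (SE 0.09) per unit in control and 0.13 (SE 0.06) in deprived cells, a difference of 0.61 (SE 0.12, adjusted p = 0.021 in limma, against 1.09 percent of all genes called and 0.707 percent upward, 141 higher and 77 lower, or 165 and 49 with arrays centred on their medians). That call was lost without the 1 h arrays (0.60, adjusted p = 0.0706) and without the 16 h arrays (0.66, adjusted p = 0.0928).

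Klf4, a zinc finger factor of growth arrest and of pluripotency, was close in both groups at 1 h (9.49 and 9.61) and at 2 h (9.18 and 9.37) and parted at 3 h (8.90 and 9.86). On the 5 h arrays it was at 8.91, 8.76, 8.76 and 8.09 in control and 10.30, 10.19, 10.18 and 9.54 in deprived cells, without overlap. It rose 2.68-fold (log2 1.42, SE 0.21, adjusted p = 0.00509 in limma) and passed in all 16 settings (adjusted p up to 0.0254). Array 4 was lowest in both groups, and the 4 pair differences were 1.39, 1.43, 1.41 and 1.45. At 16 h Klf4 was 2.35-fold higher in deprived cells (8.33 and 9.57), and the deprived level was 0.48 under its 5 h mean while the control level was 0.30 under its own. It was the 1 gene of the 31 that was higher in deprived cells at all 5 times, as 6.05 percent of all genes were. The promoter of Klf4 (chr4:55532476-55532675, minus strand) is shown as that of the gene with the largest 5 h rise, with its Egr site, read here on the opposite strand, in capitals.
Klf4: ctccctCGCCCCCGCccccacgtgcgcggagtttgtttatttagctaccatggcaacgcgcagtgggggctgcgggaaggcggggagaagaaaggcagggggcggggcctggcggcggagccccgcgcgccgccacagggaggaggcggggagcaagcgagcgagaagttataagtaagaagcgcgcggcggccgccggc

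The other Krüppel-like genes of the list did not pass at 5 h in any setting run. Klf2, a factor of endothelial and lymphocyte quiescence, was lower in deprived cells by 0.38 at 1 h and differed by 0.01 (SE 0.15) at 5 h. Klf6 differed by -0.19 (SE 0.10) at 5 h and was higher by 0.49 at 16 h. Klf10, induced by TGF-beta, went down in control cells from 10.63 at 1 h to 9.37 at 16 h. Its slope in control cells, -0.32 per unit of log2 hours (SE 0.04, adjusted p = 0.0298 in limma), was the 1 control slope of the 31 that passed, among 0.0351 percent of all genes, 0.0301 percent downward. It did not pass without the 1 h array (-0.27, adjusted p = 0.236). At 16 h deprived cells held 1.59-fold more Klf10 signal than control cells.

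The Nr4a genes code for orphan nuclear receptors that signals induce rapidly. Nr4a1 was at 9.36, 8.97 and 7.72 in control cells at 1, 2 and 3 h and at 8.76, 7.97 and 7.59 in deprived cells. On the 5 h arrays it lay between 7.56 and 7.83 in control and between 7.53 and 7.69 in deprived cells, and at 16 h at 7.88 and 8.28. Nr4a1 was thus lower in deprived cells at 1, 2 and 3 h, by 0.60, 1.00 and 0.13, while both courses went down together. Its control slope without the 16 h array was -0.73 (adjusted p = 0.0496 in limma) and its deprived slope -0.44 (adjusted p = 0.0191); with it they were -0.43 (adjusted p = 0.304) and -0.13 (adjusted p = 0.648).

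Nr4a2, needed for dopamine neurons, was higher in deprived cells late. Its 5 h arrays stood at 8.72, 8.74, 8.71 and 7.96 in control and 9.42, 9.28, 9.38 and 8.27 in deprived cells, with array 4 far lower in both. The difference of 0.55 (SE 0.27) had an adjusted p = 0.435 in limma, 0.000408 in the block fit and 0.000122 without both arrays numbered 4. It was 0.36 without control array 4 alone and 0.83 without deprived array 4 alone. At 16 h the levels were 8.44 and 9.60, 2.24-fold higher in deprived cells. Nr4a3 differed by -0.70 at 2 h and by 0.23 (SE 0.12) at 5 h (adjusted p = 0.457 in limma, 0.0243 in the block fit and 0.0398 without both arrays numbered 4), or by 0.15 without control array 4 alone.

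The 2 genes for proteins that bind AU-rich mRNAs and send them to decay, Zfp36 and Zfp36l1, were lower in deprived cells up to 5 h. Zfp36l1 was at 10.29, 10.37 and 10.04 in control and 9.82, 9.69 and 9.23 in deprived cells at 1, 2 and 3 h. The 5 h arrays were at 10.27, 10.27, 10.32 and 10.70 in control and 9.66, 9.57, 9.69 and 10.00 in deprived cells, without overlap. It fell 1.58-fold (log2 -0.66, SE 0.13, adjusted p = 0.019 in limma, 4 of 4 pairs) and was 2.18-fold lower at 16 h (10.65 and 9.53). The call was lost without deprived array 1, 2 or 3 (adjusted p = 0.0763, 0.0712 and 0.0708), with differences of -0.63, -0.60 and -0.64.

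Zfp36 was lower in deprived cells by 0.61, 0.26 and 0.54 at 1, 2 and 3 h. At 5 h it measured 8.40, 8.33, 8.20 and 8.16 in control and 7.90, 7.75, 7.92 and 8.05 in deprived cells, without overlap. The difference of -0.36 (SE 0.09) missed the threshold (limma adjusted p = 0.0614) and passed in the block fit (adjusted p = 0.0086) and without both arrays numbered 4 (-0.45, adjusted p = 0.00303). At 16 h Zfp36 was higher in deprived cells by 0.34. The promoters of these related genes are printed for comparison. That of Zfp36 (chr7:28379229-28379428, minus strand) holds an Egr site and a CArG box, and that of Zfp36l1 (chr12:80113014-80113213, minus strand) an AP-1 site and a TATA box, all in capitals.
Zfp36: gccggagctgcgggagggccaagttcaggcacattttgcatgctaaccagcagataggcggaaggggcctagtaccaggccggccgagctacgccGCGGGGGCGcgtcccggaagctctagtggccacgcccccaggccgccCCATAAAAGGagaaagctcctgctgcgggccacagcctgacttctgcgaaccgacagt
Zfp36l1: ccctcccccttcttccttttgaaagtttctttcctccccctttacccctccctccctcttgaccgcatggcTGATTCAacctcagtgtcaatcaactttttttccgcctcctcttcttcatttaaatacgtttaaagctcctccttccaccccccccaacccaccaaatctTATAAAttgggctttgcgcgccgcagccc

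The matricellular genes Ccn1 and Ccn2, which code for secreted proteins that bind integrins and are induced through Srf cofactors and Yap, were both lower in deprived cells at 16 h. Ccn1 was lower in deprived cells at all 5 times, as 6.71 percent of all genes were, by 0.52, 0.13 and 0.30 at 1, 2 and 3 h and 0.50 at 16 h. On the 5 h arrays it was at 12.56, 12.55, 12.47 and 12.19 in control and 12.03, 12.03, 12.03 and 11.66 in deprived cells, without overlap. It fell 1.42-fold (log2 -0.50, SE 0.12, adjusted p = 0.0451 in limma). That call was close to the threshold: it was lost without any single array except control array 4 (adjusted p = 0.0562 to 0.15) and with arrays centred on their medians (0.0504), and held in the block fit (0.000166) and without both arrays numbered 4 (0.000454). Ccn2 stood at 12.56 and 12.25 at 1 h and went down in both groups to 10.88 and 10.27 at 16 h. Its slope in deprived cells passed (-0.47, SE 0.12, adjusted p = 0.0351 in limma) but not without the 16 h array (-0.22, adjusted p = 0.428). Its 5 h difference was -0.29 (SE 0.22, adjusted p = 0.784 in limma, 0.0131 in the block fit and 0.0448 without both arrays numbered 4). Its value was -0.45 without control array 4 alone and -0.07 without deprived array 4 alone. The promoter of Ccn1 (chr3:145649986-145650185, minus strand) is shown with its CREB core, read on the opposite strand, and TATA box in capitals.
Ccn1: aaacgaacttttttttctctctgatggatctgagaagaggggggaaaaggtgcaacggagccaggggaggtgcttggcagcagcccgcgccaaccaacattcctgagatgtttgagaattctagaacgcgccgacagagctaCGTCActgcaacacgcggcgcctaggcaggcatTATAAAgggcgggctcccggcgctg

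Srf, the factor on which many of these promoters depend, ran opposite to most of the list at 1 h. It was at 9.65, 9.53 and 10.01 in control and 9.86, 9.39 and 9.66 in deprived cells at 1, 2 and 3 h. Its 5 h arrays stood at 10.43, 10.39, 10.45 and 9.84 in control and 9.82, 9.88, 9.80 and 9.52 in deprived cells, and at 16 h at 9.90 and 9.44. Control array 4 alone overlapped with the deprived arrays at 5 h. Its difference at 5 h of -0.52 (SE 0.15) had an adjusted p = 0.0932 in limma, 0.000372 in the block fit and 0.000155 without both arrays numbered 4. Its own promoter (chr17:46556163-46556362, minus strand) carries 2 CArG boxes, with an Egr site before them and a TATA box after them in capitals. That TATA box is read on the opposite strand. The CREB core at the far end of the promoter runs past the stretch printed.
Srf: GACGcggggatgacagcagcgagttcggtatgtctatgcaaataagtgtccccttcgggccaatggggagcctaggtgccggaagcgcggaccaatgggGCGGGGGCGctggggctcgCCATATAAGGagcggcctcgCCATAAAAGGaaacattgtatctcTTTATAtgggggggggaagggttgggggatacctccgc

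Ier2, a nuclear protein gene induced by growth factors, was lower by 0.36 in deprived cells at 1 h and higher by 0.39 and 0.35 at 2 and 3 h. Its 5 h arrays were at 7.13, 7.05, 7.23 and 7.32 in control and 7.61, 7.53, 7.55 and 8.39 in deprived cells, without overlap, and at 16 h the levels were 6.99 and 8.38. The 5 h difference of 0.59 (SE 0.18) had an adjusted p = 0.129 in limma, 0.00215 in the block fit and 0.00219 without both arrays numbered 4 (0.43), and was 0.39 without deprived array 4 alone. Ier3, a survival gene, was at 9.03 in control and 8.11 in deprived cells at 1 h and at 7.54 in both at 16 h. Ier5 differed by at most 0.34 at any time.

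Dusp1, a phosphatase that switches off p38 and JNK, was lower in deprived cells by 0.57 at 1 h. At 5 h it measured 12.16, 12.17, 12.18 and 10.76 in control and 11.79, 11.74, 11.67 and 10.56 in deprived cells, with array 4 lower by more than 1 in both. The difference of -0.38 (SE 0.37) had an adjusted p = 0.907 in limma, 0.00231 in the block fit and 0.00115 without both arrays numbered 4. It was -0.73 without control array 4 alone and -0.08 without deprived array 4 alone. Btg2, an antiproliferative gene that p53 induces, was at 9.35 in control and 8.43 in deprived cells at 1 h and at 8.77 and 9.91 at 16 h, a turn from 1.89-fold lower to 2.20-fold higher. Its 5 h difference of -0.17 (SE 0.08, adjusted p = 0.391 in limma) passed in no setting, and the related Btg1 differed by at most 0.17 at any time.

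Arc, a gene of synaptic plasticity in neurons, was lower in deprived cells at all 5 times, by 0.54, 0.48 and 0.85 at 1, 2 and 3 h and 0.25 at 16 h. So were 6.71 percent of all genes, and in the list also Zfp36l1, Ccn1 and Ier3, the last by only 0.01 at 16 h. On the 5 h arrays it was at 8.41, 8.39, 8.20 and 8.87 in control and 8.02, 7.74, 7.79 and 8.10 in deprived cells, without overlap. The difference of -0.56 (SE 0.15) had an adjusted p = 0.0745 in limma, 0.000439 in the block fit and 0.00441 without both arrays numbered 4.

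**Figure D4:**
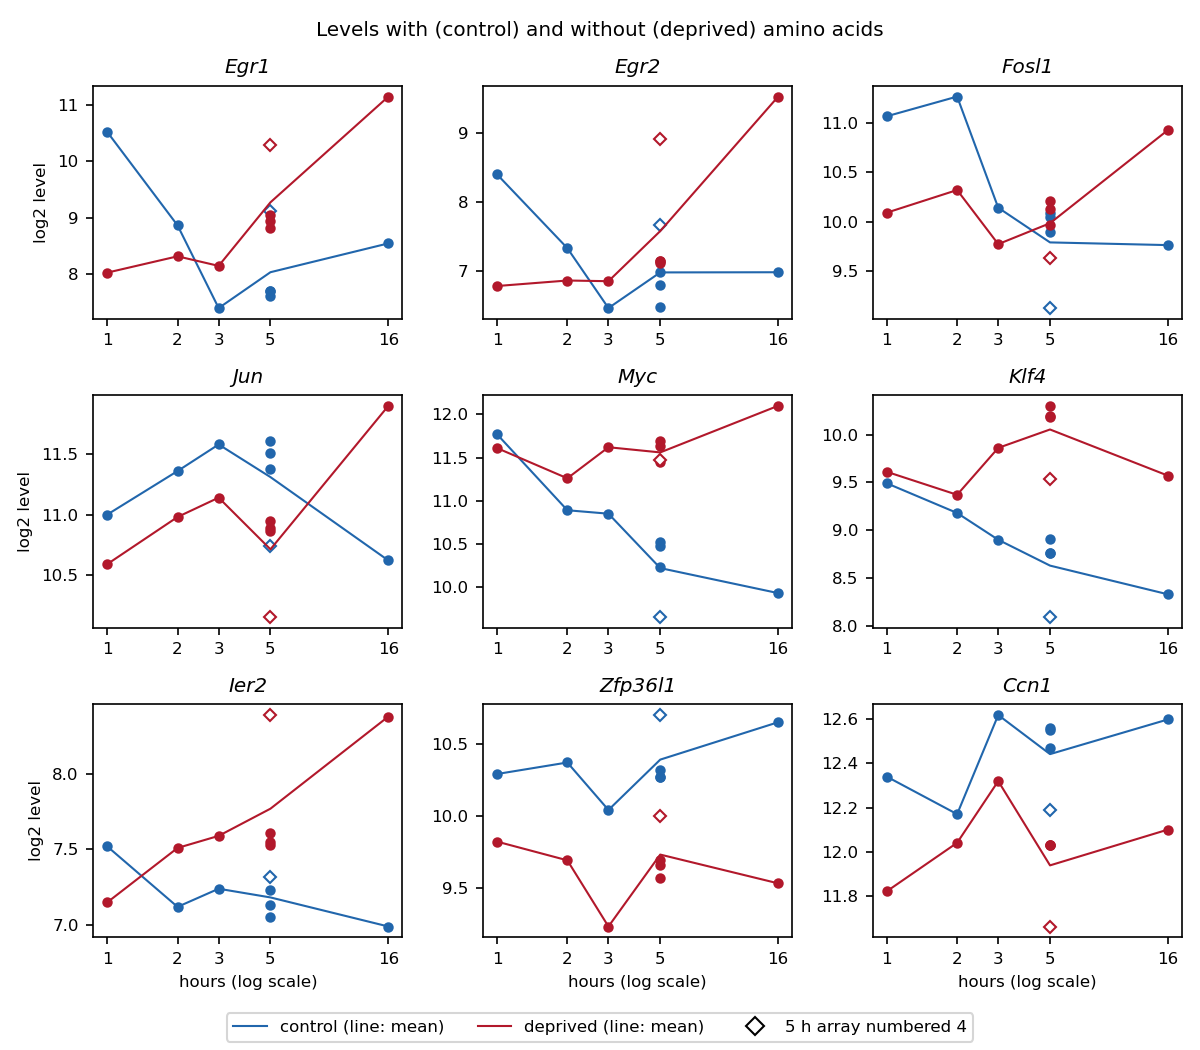
Log2 level of 9 immediate early genes against hours (log axis) in control (blue) and deprived cells (red), with a point for each array, the 5 h arrays numbered 4 as open diamonds, and lines through the means. Control levels of Egr1, Egr2 and Fosl1 start high and go down while the deprived levels end high at 16 h, Myc and Klf4 part from 3 h on, and Zfp36l1 and Ccn1 are lower in deprived cells at each time.

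Within the control course alone, 7 genes were at least 2-fold higher at 1 h than the mean of the 5 h controls, namely Fosl1, Egr1, Egr2, Ier3, Myc, Nr4a1 and Maff, against 0.411 percent of all genes. None was 2-fold lower. The level at 1 h was above all 4 of the 5 h controls for 23 of the 31, against 16.5 percent of all genes, and below all of them for Ier5 and Srf, against 19.5 percent. In deprived cells 1 gene, Nr4a1, was at least 2-fold above its 5 h mean at 1 h, against 0.416 percent of all genes. At 16 h Jun, Egr1, Egr2 and Btg2 were at least 2-fold above their deprived 5 h means, against 0.266 percent of all genes, and Ccn2 was below by 1.53, against 1.99 percent. All these 5 h means include the arrays numbered 4. Array 4 was lowest for Maff in control cells (6.62, against 7.64, 7.25 and 7.35, with 8.36 at 1 h). For Jun it was lowest in deprived cells (10.15, against 10.89, 10.86 and 10.95, with 11.90 at 16 h). For Egr1 and Egr2 it was highest in both groups. The counts were not made without these arrays.

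At the lower limit of 1.5-fold, 7 genes were lower in deprived cells at 1 h (Fosl1, Egr1, Egr2, Ier3, Nr4a1, Btg2 and Zfp36), against 0.346 percent of all genes, and 6 at 2 h (Fosb, Fosl1, Nr4a1, Nr4a3, Zfp36l1 and Maff), against 0.627 percent. At 3 h Egr1, Myc and Klf4 were higher by that much, against 0.522 percent, and Arc and Zfp36l1 lower, against 0.617 percent. Egr1 and Egr2 were at least 2-fold lower in deprived cells at 1 h, against 0.105 percent of all genes, and none was higher by as much, against 0.0201 percent. At 2 h Nr4a1 lay at the limit, with a difference of -0.9999, and is not in the count of 0 genes (0.0602 percent of all genes were higher and 0.12 percent lower), but was counted with quantile normalization. At 3 h the count was also 0 (0.0903 and 0.0451 percent). At 16 h, 10 were at least 2-fold higher, Fosl1, Jun, Egr1, Egr2, Ier2, Myc, Klf4, Nr4a2, Btg2 and Maff, against 1.96 percent of all genes, and Fosl2 and Zfp36l1 were at least 2-fold lower, against 2.97 percent.

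The deprived slopes that passed were those of Egr1 (0.80 per unit of log2 hours, SE 0.15, adjusted p = 0.0146 in limma), Ier2 (0.29), Fosl2 (-0.37), Ier3 (-0.19), Arc (-0.22) and Ccn2, 6 of 31 against 8.22 percent of all genes, with 4.26 percent of all genes up and 3.96 percent down. Without the 16 h array Arc alone of these 6 still passed (-0.30, adjusted p = 0.0349), and the slope of Egr1 was 0.59 (adjusted p = 0.162). Without the 1 h array Egr1 (1.03, adjusted p = 0.0238) and Ccn2 (-0.67, adjusted p = 0.0322) still passed and the other 4 did not. The slope difference of Egr1 was 1.27 (SE 0.32, adjusted p = 0.0673 in limma) and that of Egr2 0.99 (SE 0.27, adjusted p = 0.0875). Without both arrays numbered 4, slope differences passed for Egr1, Egr2, Fosl1, Ier2, Maff and Myc (steeper upward in deprived cells), against 1.98 percent of all genes, and for Fosl2 (downward), against 1.71 percent. The mean difference over 1, 2, 3 and 16 h passed for none of the 19938 genes in limma, with 1244 genes (6.24 percent) and 6 of the 31 at an unadjusted p under 0.05. Without the 16 h arrays Arc (-0.62, adjusted p = 0.0413) and Zfp36l1 (-0.65, adjusted p = 0.0366) passed as lower.

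Other genes of the pathway were taken from lists written with earlier results of these data known. Of the kinases and factors that signal to immediate early genes (such as Mapk14, Braf, Elk1 and Creb1), 23 were measured. None of the 23 passed at 5 h, against 4.11 percent of all genes. With the block 2 were higher and 3 lower, against 8.22 and 10 percent of all genes. Of 24 other measured leucine zipper factor genes, not all of them partners of Fos and Jun, 11 rose and none fell, against 2.41 and 1.7 percent of all genes. Their median difference was 0.29, against -0.01 over all genes. With the block 14 were higher and 1 lower, against 8.22 and 10 percent. Cebpg rose by 1.16 (SE 0.09) and Nfe2l1 by 0.70 (SE 0.08), and Ddit3 and Atf4, which belong to the amino acid response, rose by 1.77 (SE 0.14) and 0.95 (SE 0.08). At 1 h these 4 genes differed by 0.05, -0.03, 0.34 and 0.32, where Egr1 differed by -2.50. Of 14 genes of the Myc and Max network, Mga rose by 0.56 (SE 0.08) and Mxd3, a Max partner that opposes Myc, fell by 0.57 (SE 0.12), with a list median of -0.01. Of 20 factors of AU-rich mRNA decay, Tob1 fell by 0.55 (SE 0.10). The calls in the Myc and AU-rich lists stand against 2.41 percent of all genes higher and 1.7 percent lower.

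Of 22 other Krüppel-like, Egr and early nuclear genes, Klf9 (0.82, SE 0.11) and Klf11 (0.64, SE 0.10) rose, and Id2 (-0.74, SE 0.10) and Csrnp2 (-0.54, SE 0.08) fell. Of all genes 2.41 percent were called higher and 1.7 percent lower at 5 h. Among 17 dual-specificity phosphatase and ERK feedback genes, Etv5 rose by 0.76 (SE 0.11) and Dusp4 by 0.82 (SE 0.14), and Dusp7 fell by 0.46 (SE 0.10). These calls stand against the same 2.41 and 1.7 percent of all genes. In the block fit 7 of the 17 passed as higher and 5 as lower, against 8.22 and 10 percent of all genes. The list medians were -0.13 at 1 h, 0.09 at 5 h and 0.11 at 16 h. Of the called genes, Etv5 and Dusp4 differed by -0.42 and -0.69 at 1 h and by 1.56 and 0.65 at 16 h, and Dusp7 by -0.05 and -0.52. Of 21 Yap pathway genes and Ccn relatives, a list that also holds Yap1 and the Tead genes, Wwtr1 (0.52, SE 0.07) and Amotl1 (0.47, SE 0.11) rose. None fell, against 2.41 percent of all genes higher and 1.7 percent lower.

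Of 21 cytoskeletal targets of Srf, 4 fell and none rose, against 1.7 and 2.41 percent of all genes, with a list median of -0.32 against -0.01 over all genes. With the block 13 were lower and 0 higher, against 10 and 8.22 percent. Cnn2, a calponin, fell by 0.88 (SE 0.08), Tpm2, a tropomyosin, by 0.57 (SE 0.09), Vcl, vinculin, by 0.45 (SE 0.09) and Tagln2 by 0.44 (SE 0.08). At 16 h these were lower by 2.55, 1.55, 1.13 and 0.94, and the list median was -0.81. At 1 h the list median was -0.04.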

How the data were processed

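From each sample 250 ng of total RNA was made into labelled cDNA for an Affymetrix whole-transcript array, as the labels' protocols state. The authors deposited log2 values made with RMA, per the submitters' processing notes, which also name limma and give no versions or settings; RMA draws arrays toward 1 distribution, so a shift shared by most genes cannot be seen. Of 35556 rows, 21789 carry 1 gene symbol; these were updated through Entrez identifiers, and the row with the highest mean was kept for each gene, which left 19938 genes. Rows with several symbols (1621) or none (12146) were not used here.

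Tests used limma 3.58.1 in R 4.3.3 (eBayes, two-sided, Benjamini-Hochberg over all genes, threshold 0.05): deprived against control at 5 h, the mean over 1, 2, 3 and 16 h with time as a factor, and slopes on log2 hours. A slope rests on 1 array per treatment at each time other than 5 h. Single-array differences were counted from a log2 difference of 1. Values were handled with Python 3.11.15, numpy 2.4.6, pandas 2.3.3 and matplotlib 3.10.9. The tests were tried on simulated data with independent noise for each array, unlike the arrays numbered 4, which shifted together. At 5 h they recovered 51 percent of changes of 0.5 and 90 percent of changes of 1. For the mean of 1, 2, 3 and 16 h these shares were 7 and 75 percent. For slope changes of 0.5 or 1 per unit they were 89 to 100 percent. The members and lists were chosen with earlier results of these data known. All members were to be named, and of other lists up to 4 genes with the smallest p.

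Both 5 h groups carry the numbers 1 to 4. Deviations from the group means correlated at 0.354, 0.584, 0.467 and 0.896 for equal numbers, each over the minimum of 0.1, and equal numbers were therefore taken as pairs in a second fit with a replicate block. Control arrays 1 to 3 also correlated with deprived arrays 1 to 3 of other numbers (0.133 to 0.68). The minimum therefore could not tell equal numbers from other pairings there. Deprived arrays 1, 2 and 3 correlated most with control arrays 2, 3 and 2 (0.531, 0.68 and 0.583). Only for the arrays numbered 4 was the equal number the best match. Further settings were another quantile normalization, centring on medians, the mean of a gene's rows, genes above the median level, a trended prior, and arrays or times left out. The number of arrays limits the precision.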

Additional observations from a re-analysis of the deposited data

Results flagged for a closer look

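At 5 h, 62 groups of 4 arrays were searched for an array far from the others, measured as its gap to the nearest array over the whole range of the group. Of these, 19 groups of 16 genes passed Dixon's critical value, 7 in control and 12 in deprived cells, and 18 of these were arrays numbered 4. Chance gives about 5 percent of groups where groups are independent, but these groups all come from the same arrays. Such flags were not counted over all genes. Array 4 lay outside the range of arrays 1 to 3 for 80.7 percent of all genes in control and 84.7 percent in deprived cells. In both groups the array numbered 4 was highest for Egr1 (0.937 in control and 0.854 in deprived cells) and lowest for Dusp1 (0.992 and 0.904) and Nr4a2 (0.958 and 0.877). In control cells it was lowest for Fosl2 (0.881), Ier3 (0.83) and Srf (0.898) and highest for Zfp36l1 (0.884). In deprived cells it was highest for Junb (0.936), Egr2 (0.974) and Ier2 (0.908). It was lowest there for Jun (0.888), Klf4 (0.834), Ccn1 (0.989), Ccn2 (0.904) and Maff (0.891). The exception was Btg2, where deprived array 3 was lowest (0.885).

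Egr1 and Egr2 were more than 2-fold lower in deprived cells at 1 h and more than 2-fold higher at 16 h. From 1 to 16 h the difference moved by 5.11 for Egr1 and 4.17 for Egr2 on the log2 scale, and with 1 array per treatment at each time this was not tested. For Myc the slopes on log2 hours differed between treatments by 0.61 (adjusted p = 0.021 in limma).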

How the results depend on the processing

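Of 680 comparisons of a gene with an alternative setting, 581 kept their side of the threshold, 29 lost a call, 70 gained one and 0 called values changed sign. Among uncalled values 25 changed sign. Genes called in neither setting count among the 581, which therefore does not measure how stable the calls are. For slopes only genes called in some setting were compared. At 5 h (2 genes higher, 2 lower, 820 of all genes called), the replicate block called 8 and 10, and 3632 genes, and leaving out both arrays numbered 4 called 8 and 10, and 2695 genes. Centring left 1 lower. Leaving out single arrays gave 2 to 5 higher, 0 to 5 lower and 382 to 1066 of all genes. The mean over 1, 2, 3 and 16 h called 2 lower and 35 genes without the 16 h arrays.

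Control slopes (1 lower, 7 genes) gave 4 and 52 with the 5 h arrays averaged, 6 and 220 without arrays numbered 4, 0 and 1 without 1 h, 3 and 23 without 16 h, and 0 lower with quantile normalization. Deprived slopes (2 higher, 4 lower, 1639 genes) gave 4 higher with the 5 h arrays averaged, 2 lower with the trended prior, 5 higher and 2829 genes without arrays numbered 4, 1 lower and 799 genes without 1 h, and 0 higher, 2 lower and 621 genes without 16 h. Slope differences (1 higher, 0 lower, 218 genes) gave 3 higher, 1 lower and 426 genes with the 5 h arrays averaged, 6, 1 and 736 without arrays numbered 4, 2 higher with dim genes left out, 2 higher and 384 genes with quantile normalization, 0 higher without 1 h, and 0 higher and 46 genes without 16 h.

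The median at 16 h, 0.34, was 0.44 with quantile normalization and 0.43 with centring. At 1.5-fold, 7 genes were lower at 1 h, 6 at 2 h and 2 at 3 h, and 3 were higher at 3 h. With quantile normalization 1 was 2-fold lower at 2 h and 1 higher at 3 h, and with centring 1 was 2-fold lower at 16 h. Where fewer arrays or times were used, the number of samples differs by construction; otherwise the cause was not tested. Differences at 1, 2, 3 and 16 h have no replicates.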
